A study of Mus musculus with 4 samples.

Results

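Retinoid metabolism and signaling was examined in mouse liver through 9 genes, Rbp4, Lrat, Rdh10, Dhrs3, Aldh1a1, Aldh1a2, Cyp26a1, Cyp26b1 and Rarb. The members were taken by name, as the gene probes of the array that carry one of these symbols, which gave 11 probes of 39392 and 9 genes of 30439. Total RNA from 4 livers was hybridized to 1-colour Agilent arrays, 1 array for each group, and the 4 arrays lay on 1 slide with 1 scan. All groups were male C57BL/6J mice given a high-fat diet for 24 weeks. Drp1LiKO mice carry Alb-Cre with Drp1 flox/flox alleles, so that Cre is driven by the albumin promoter and Drp1, a mitochondrial fission protein, is lost in hepatocytes. Control mice were Drp1 flox/flox littermates without Cre. One control liver and one Drp1LiKO liver came from animals fasted for 17 h and then refed for 4 h. The labels of the other control liver and the other Drp1LiKO liver name no feeding state, and this pair is called fasted here after the study's description. With 1 array in a group no spread between animals could be measured, and no comparison of single groups below has a test or a replicate check.

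Retinol is released from retinyl ester stores, carried in blood by a retinol-binding protein, oxidized to retinal and then to retinoic acid, and retinoic acid acts through nuclear receptors before it is degraded by cytochromes of the CYP26 family. Liver is the main store of vitamin A. Hepatocytes secrete the carrier, and hepatic stellate cells hold most of the retinyl ester. Cyp26a1 and Rarb are textbook genes induced by retinoic acid. Which of the other members retinoic acid also induces was not examined here.

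Values are given as relative signals, the background-subtracted signal of a probe divided by the 75th percentile of all gene spots on the same array, so that 1 is the level of that percentile. The percentile itself was 461 intensity units on the fasted control array, 722 on the fasted Drp1LiKO array, 357 on the refed control array and 526 on the refed Drp1LiKO array. A gene is called measured where the scanner software marked its signal as well above background, and a probe without that mark in any liver is said to be at background throughout. That mark was carried by 51.4% of gene spots on the fasted control array, 58.2% on the fasted Drp1LiKO array, 48.7% on the refed control array and 55.4% on the refed Drp1LiKO array. Both Drp1LiKO arrays were thus brighter than the control array of the same feeding state. Differences are in log2 units with the measurement SE of the scanner's error model, which covers the spots and not the spread between mice. A difference counts as at least 2-fold only where the brighter signal was measured.

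The targeted gene was read by 1 probe. Dnm1l, which encodes Drp1, had relative signals of 2.03 in the fasted control liver, 1.75 in the fasted Drp1LiKO liver, 1.58 in the refed control liver and 1.46 in the refed Drp1LiKO liver. The genotype difference was -0.21 ± 0.20 in the fasted pair and -0.12 ± 0.20 in the refed pair, about 1 SE or less. The exons removed by Cre are not given in the sources used here, and a probe outside them does not check the labels. Albumin, the defining hepatocyte marker, had relative signals of 865, 604, 1067 and 729 in the fasted control, fasted Drp1LiKO, refed control and refed Drp1LiKO livers, so the tissue's main marker was abundant in all 4.

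The 2 measured CYP26 genes and the receptor gene Rarb were higher in Drp1LiKO liver in both pairs, Cyp26b1 by less than 2-fold in the refed pair. In the fasted pair 3 of the 9 members, Cyp26a1, Cyp26b1 and Rarb, were at least 2-fold higher, beside 8.06% of the 18040 genes measured in either liver, and no member was at least 2-fold lower, beside 5.19%. In the refed pair 2 of the 9, Cyp26a1 and Rarb, were at least 2-fold higher, beside 8.05% of 17446 genes, and none was at least 2-fold lower, beside 6.33%. With normexp background correction Rarb fell short of 2-fold, which left 2 members higher in the fasted pair and 1 in the refed pair. The carrier Rbp4 and the enzymes Aldh1a1 and Dhrs3 had lower values in Drp1LiKO liver in both pairs, each by less than 2-fold, though in the fasted pair quantile normalization turned Rbp4 to 0.05 and took Aldh1a1 to -0.06. Of the 9 members 8 were measured on all 4 arrays and Aldh1a2 on none. The shares over all genes include 2571 genes measured in 1 liver of the fasted pair only. Among genes measured in both livers 469 were at least 2-fold higher and 570 lower in that pair, and normexp background correction gave 358 and 569 over all genes. In the refed pair the same counts were 465 higher and 644 lower among genes measured in both livers, and 363 and 709 with normexp background correction, so the balance over all genes turned in both pairs. In bulk liver RNA, fewer cells of a type and less RNA in each cell cannot be told apart.

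**Figure D1:**
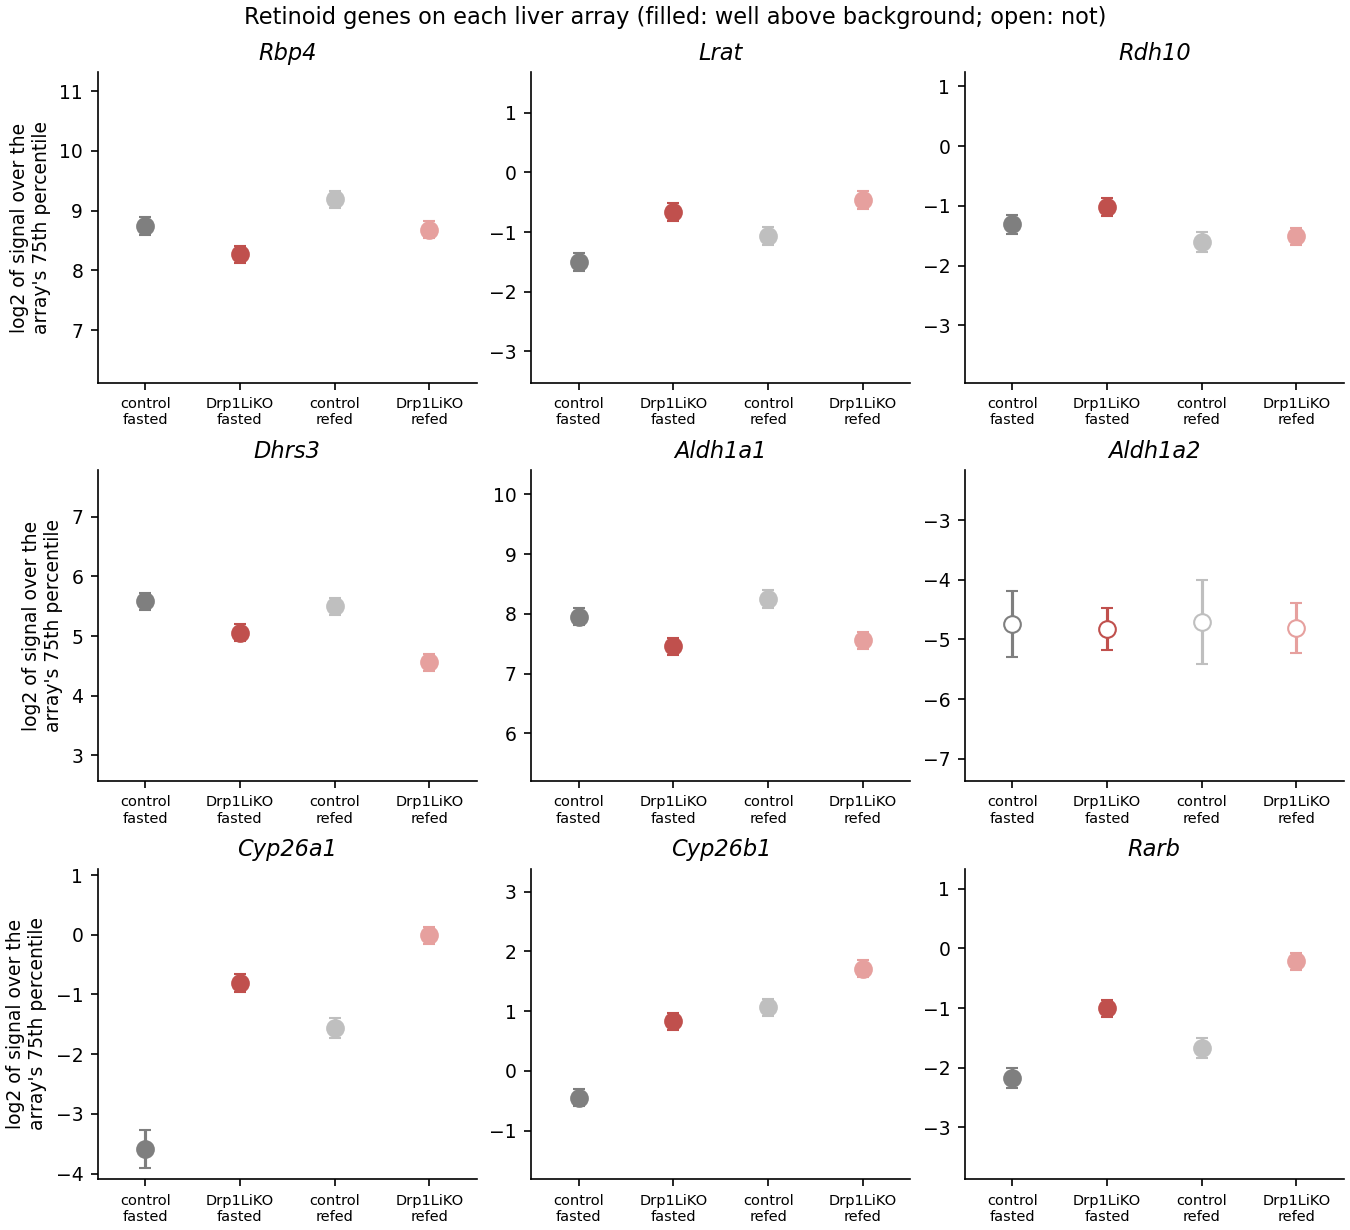
Each panel plots 1 retinoid gene on the 4 liver arrays, with the log2 of the signal over the array's 75th percentile on the vertical axis and bars for the scanner's measurement SE. Filled points were well above background, as in all panels but that of Aldh1a2, and the Cyp26a1 points run from a relative signal of 0.0832 in the fasted control liver to 0.992 in the refed Drp1LiKO liver.

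Among the genes of transport and storage, Rbp4 encodes the plasma retinol carrier made by hepatocytes. Its relative signal was 428 in the fasted control liver, 308 in the fasted Drp1LiKO liver, 583 in the refed control liver and 409.9 in the refed Drp1LiKO liver. Both Drp1LiKO livers were below the control of the same feeding state, by -0.48 ± 0.20 in the fasted pair and -0.51 ± 0.20 in the refed pair. This direction depended on the scaling between arrays, since quantile normalization gave 0.05 in the fasted pair and -0.08 in the refed pair. Lrat encodes the enzyme that esterifies retinol for storage and is typical of stellate cells. Its relative signal was 0.353 in the fasted control liver, 0.632 in the fasted Drp1LiKO liver, 0.479 in the refed control liver and 0.726 in the refed Drp1LiKO liver. The Lrat signal was higher in Drp1LiKO liver in both feeding states, by 0.84 ± 0.21 in the fasted pair and 0.60 ± 0.21 in the refed pair, short of 2-fold in each.

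Rdh10 and Dhrs3 work in opposite directions between retinol and retinal. Rdh10 oxidizes retinol to retinal, and its relative signal was 0.403 in the fasted control liver, 0.495 in the fasted Drp1LiKO liver, 0.329 in the refed control liver and 0.350 in the refed Drp1LiKO liver. Its genotype difference was 0.30 ± 0.21 in the fasted pair and 0.09 ± 0.22 in the refed pair, within 2 SE in both, and the second turned to -0.09 with normexp background correction. Dhrs3 reduces retinal back to retinol. It had relative signals of 48.0 and 33.3 in the fasted control and Drp1LiKO livers, and of 45.2 and 23.6 in the refed control and Drp1LiKO livers. Dhrs3 was therefore lower in Drp1LiKO liver by -0.53 ± 0.20 in the fasted pair and -0.93 ± 0.20 in the refed pair, and it kept this direction in each scaling, with -0.24 and -0.73 after quantile normalization.

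Aldh1a1 and Aldh1a2 encode retinaldehyde dehydrogenases, which make retinoic acid from retinal. The relative signal of Aldh1a1 was 247 in the fasted control liver, 176 in the fasted Drp1LiKO liver, 304 in the refed control liver and 188 in the refed Drp1LiKO liver. Its genotype difference was -0.49 ± 0.20 in the fasted pair and -0.69 ± 0.20 in the refed pair. Quantile normalization moved these values to -0.06 and -0.43. The Aldh1a2 probe was at background throughout, and no difference is given for it.

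Cyp26a1 encodes the main retinoic acid hydroxylase of adult liver. The relative signal of Cyp26a1 was 0.0832 in the fasted control liver, 0.571 in the fasted Drp1LiKO liver, 0.339 in the refed control liver and 0.992 in the refed Drp1LiKO liver. Both Drp1LiKO livers thus stood above both control livers. The genotype difference was 2.78 ± 0.35, or 6.87-fold, in the fasted pair and 1.55 ± 0.22, or 2.92-fold, in the refed pair. It was 1.63 and 1.14 with normexp background correction, which draws weak signals together, and the fasted control signal of 38.3 intensity units was near the lowest measured signal of 29.6 units on that array. The difference between the 2 genotype differences, refed minus fasted, was -1.23 ± 0.41 and was not tested. It was smaller between the 2 values with normexp background correction, and the weak fasted control signal enters it.

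Cyp26b1 encodes a second retinoic acid hydroxylase. The relative signal of Cyp26b1 was 0.733 in the fasted control liver, 1.78 in the fasted Drp1LiKO liver, 2.09 in the refed control liver and 3.27 in the refed Drp1LiKO liver. The fasted control liver was lowest and the refed Drp1LiKO liver highest, and the fasted Drp1LiKO liver and the refed control liver between them differed by 0.24 ± 0.20, within 2 SE. Cyp26b1 was higher in Drp1LiKO liver by 1.28 ± 0.21, or 2.42-fold, in the fasted pair and by 0.64 ± 0.20, or 1.56-fold, in the refed pair.

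Rarb encodes retinoic acid receptor beta and was read by 3 probes. On the probe used for the gene, the relative signal was 0.223 in the fasted control liver, 0.499 in the fasted Drp1LiKO liver, 0.316 in the refed control liver and 0.859 in the refed Drp1LiKO liver. As for Cyp26a1, each Drp1LiKO liver was above both control livers, and each step in the order of the 4 livers was beyond 2 SE. The genotype difference of Rarb was 1.16 ± 0.22, or 2.24-fold, in the fasted pair and 1.45 ± 0.22, or 2.72-fold, in the refed pair. With normexp background correction it was 0.74 and 0.94, below 2-fold in both pairs. The median over the 3 Rarb probes gave 2.52 ± 1.45 in the fasted pair and 2.19 ± 1.20 in the refed pair, with both control signals at background. These are the values of a second Rarb probe for the same transcript, not a separate result. That probe was well above background in both Drp1LiKO livers and in neither control liver. With bounds it was at least 1.25-fold higher in the fasted pair and at least 1.20-fold higher in the refed pair. In these bounds the dim side is set to the lowest measured signal of its array or to its own signal, whichever is higher. The third Rarb probe, designed on another transcript record, was at background throughout.

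**Figure D2:**
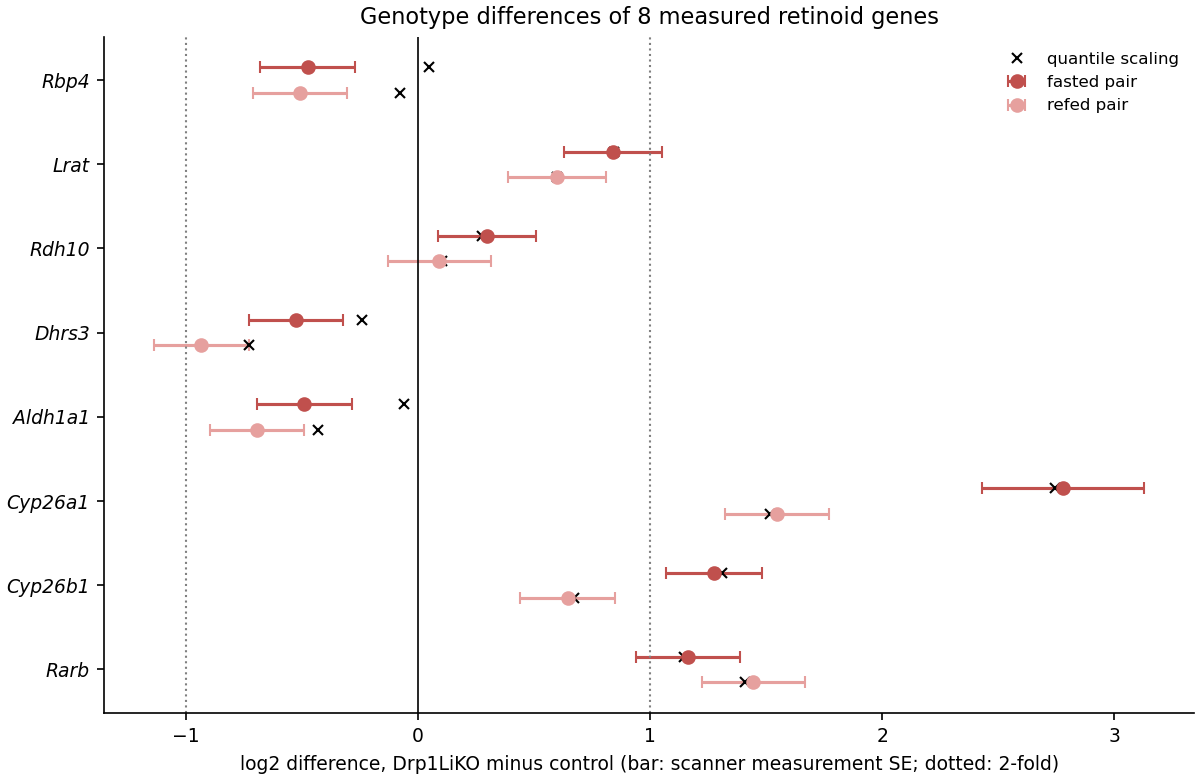
The horizontal axis gives the log2 difference of Drp1LiKO minus control liver for the 8 measured retinoid genes, in the fasted and the refed pair, with bars for the scanner's measurement SE and crosses for the same value after quantile normalization. Cyp26a1 and Rarb lie beyond the dotted 2-fold line in both pairs, Rarb not so with normexp background correction (0.74 and 0.94), while the crosses of Rbp4 fall near 0 and change side in the fasted pair.

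The promoters of the members were compared because Cyp26a1 and Rarb were at least 2-fold higher in both pairs. RefSeq promoters on GRCm38.p6, from 250 bases before to 50 after the start, were found for 8 of the 9 members, 12 promoters in all; Rdh10 has none in the table. Each was searched on both strands for 2 retinoid receptor half-sites in the same direction, where a half-site is AGGTCA or AGTTCA or else GGGTCA or GGTTCA, with 1, 2 or 5 bases between them. The repeat with 5 bases between was found in 2 member promoters, 1 of Cyp26a1 and 1 of Rarb, beside 0.0974% of all 32851 promoters. The repeats with 1 and 2 bases between were in no member promoter, beside 0.222% and 0.268% of all promoters. The 110 bases before the start are shown for both genes, with the half-sites of the repeat in capitals, at chr19:37697698-37697807 on the plus strand for Cyp26a1 and at chr14:16575477-16575586 on the minus strand for Rarb.
Cyp26a1: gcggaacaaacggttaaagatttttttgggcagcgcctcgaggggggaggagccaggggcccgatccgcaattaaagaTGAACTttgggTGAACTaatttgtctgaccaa
Rarb: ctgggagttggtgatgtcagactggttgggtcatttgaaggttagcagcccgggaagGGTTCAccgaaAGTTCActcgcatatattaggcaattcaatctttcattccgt
In the Cyp26a1 promoter the half-sites read on the opposite strand and end 15 bases before the start. In the Rarb promoter they read along the gene and end 36 bases before the start. A match describes these letters only and is no measure of receptor binding. The search was prompted by the values of these 2 genes, which were already known to be induced by retinoic acid. Finding the repeat in them is therefore no independent result, and the share over all promoters is no test. Of the genes with such a repeat, 9 others were on the array. In the fasted pair 3 of them were measured: Blvrb, a biliverdin reductase, differed by -0.40, Ppbp, a platelet chemokine, by -0.24, and Tnfsf13b, a B-cell survival factor, was past 2-fold only against a signal at background, with no bound above 1. In the refed pair 2 of them were measured and neither was 2-fold different.

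The Cyp26a1 probe is shown because the largest member difference rests on it alone. It lies at chr19:37775566-37775625 on the plus strand of mm9, the build of the array's design.
Cyp26a1 probe: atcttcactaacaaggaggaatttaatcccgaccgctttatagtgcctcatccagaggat
On the same build the Rbp4 probe lies 415 kb from it on chromosome 19, and the Aldh1a1 probe is on that chromosome too, farther off.

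Refeeding was compared within each genotype, on the same 4 arrays as above. In control liver 2 of the 9 members, Cyp26a1 and Cyp26b1, were at least 2-fold higher after refeeding, beside 4.47% of 16437 measured genes, and none was at least 2-fold lower, beside 5.83%. In Drp1LiKO liver no member passed 2-fold in either direction, beside 5.61% of 18329 genes higher and 7.15% lower. The balance over all genes turned with normexp background correction in both genotypes, to 439 higher and 287 lower in control liver and 501 and 387 in Drp1LiKO liver, and in Drp1LiKO liver also with median scaling, to 1255 and 1150. Cyp26a1 was higher in the refed control liver by 2.03 ± 0.36, or 4.08-fold, and in the refed Drp1LiKO liver by 0.80 ± 0.21. Normexp background correction took the first value to 1.17. Cyp26b1 was higher after refeeding by 1.51 ± 0.21 in control liver, or 2.85-fold, and by 0.88 ± 0.20 in Drp1LiKO liver. The fasted control liver thus had the lowest signal of the 4 for both hydroxylases, and the same array enters the fasted genotype difference and the control refeeding difference.

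The other members stayed under 2-fold with feeding. Rarb was higher after refeeding by 0.50 ± 0.24 in control liver and 0.78 ± 0.21 in Drp1LiKO liver. The median over the Rarb probes, which is the second probe, gave 0.69 ± 1.86 in control liver, on signals at background, and 0.36 ± 0.28 in Drp1LiKO liver. Lrat differed by 0.44 ± 0.22 in control liver and 0.20 ± 0.21 in Drp1LiKO liver. The retinal-reducing Dhrs3 had values of -0.09 ± 0.20 in control liver and -0.50 ± 0.20 in Drp1LiKO liver, or -0.32 and -0.81 after quantile normalization, and those of the retinol-oxidizing Rdh10 were -0.29 ± 0.22 and -0.50 ± 0.21. The carrier Rbp4 differed by 0.45 ± 0.20 in control liver and 0.41 ± 0.20 in Drp1LiKO liver, which quantile normalization reduced to 0.16 and 0.03. For Aldh1a1 the values were 0.30 ± 0.20 and 0.10 ± 0.20, and the second turned to -0.35 after quantile normalization.

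**Figure D3:**
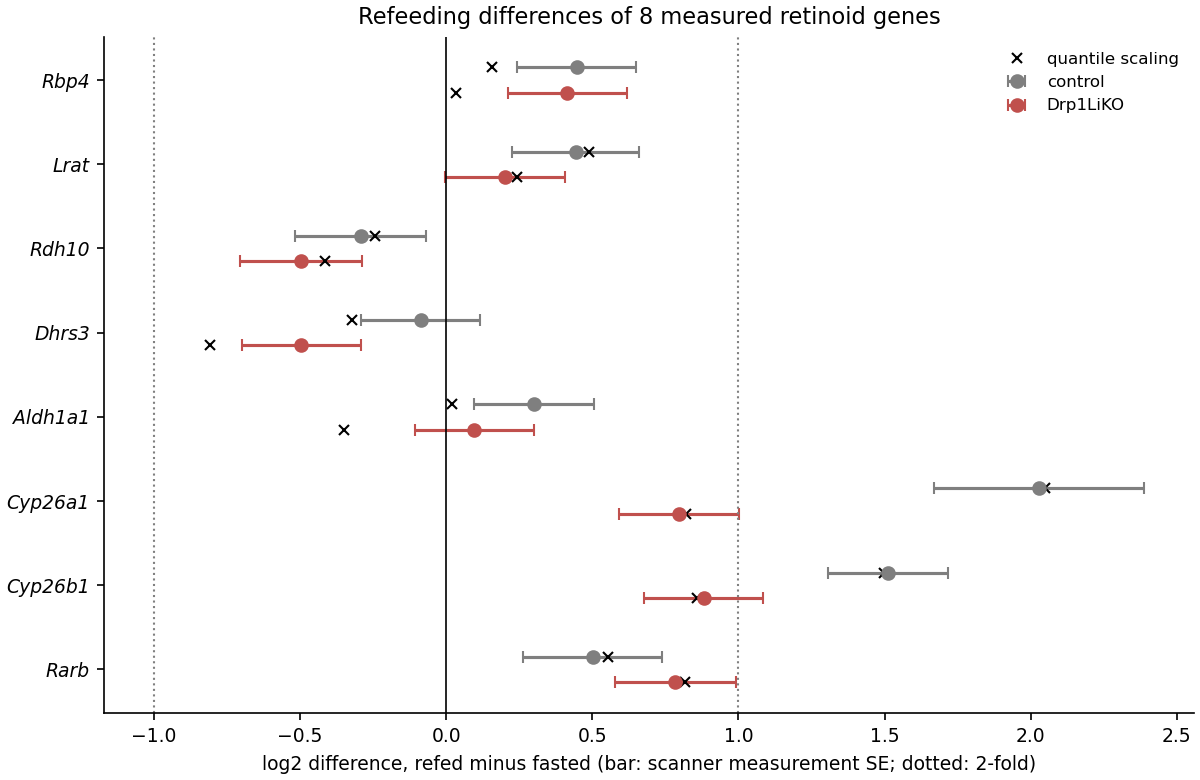
The horizontal axis gives the log2 difference of refed minus fasted liver for the 8 measured retinoid genes in control and Drp1LiKO liver, with bars for the scanner's measurement SE and crosses for quantile normalization. Cyp26a1 and Cyp26b1 pass the dotted 2-fold line in control liver, at 2.03 (1.17 with normexp background correction) and 1.51, and no gene passes it in Drp1LiKO liver, where the cross of Aldh1a1 falls below 0.

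A fit over all 4 arrays with genotype and feeding as additive terms left 1 residual degree of freedom. The variance that limma shares across genes added 2.45 to it for the tests. The residual is the difference between the 2 genotype differences, counted as error, and not the spread between animals. In this limma fit no gene had a Benjamini-Hochberg adjusted p under 0.05 for genotype, 0.0% of the 16744 tested, nor for feeding, also 0.0%, while 4746 and 4414 genes had an unadjusted p under 0.05. The limma genotype estimate of Rarb was 1.30 ± 0.16 with an adjusted p of 0.102, and that of Cyp26a1 was 2.16 ± 0.36 with an adjusted p of 0.104, both higher in Drp1LiKO liver in 2 of 2 pairs. The genotype estimates in limma were 0.96 ± 0.22 for Cyp26b1 with an adjusted p of 0.121, 0.72 ± 0.15 for Lrat with an adjusted p of 0.114 and -0.73 ± 0.17 for Dhrs3 with an adjusted p of 0.127, each with 1 direction in 2 of 2 pairs. The limma feeding estimates were 1.41 ± 0.36 for Cyp26a1 and 1.20 ± 0.22 for Cyp26b1, both with an adjusted p of 0.169 and higher after refeeding in 2 of 2 pairs.

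The genotype calls of the fit depended on the genes that entered it. With the 14447 genes whose signals were measured throughout, limma called 1214 genes, 8.4%, and among them 2 of the 8 measured members, Rarb with an adjusted p of 0.0335 and Cyp26a1 with an adjusted p of 0.0364. Normexp background correction gave 2.97% of genes called, again with Cyp26a1 at an adjusted p of 0.0388 and Rarb at 0.0477 in limma. An intensity trend in the variance gave 2.83% of genes called, with Rarb at an adjusted p of 0.0442 and Cyp26a1 at 0.0523 in limma. Over the 6 alternatives the adjusted p of limma ran from 0.0335 to 0.305 for Rarb and from 0.0364 to 0.338 for Cyp26a1, so neither gene passed in every setting.

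Genes with a profile most like that of Cyp26a1 were found by the Euclidean distance of log2 values centred over the 4 arrays, among 14446 genes measured wherever Cyp26a1 was. The nearest was Gadd45a, a stress-induced growth arrest gene, at a distance of 0.55. Next came Blnk, a B-cell adaptor, at 0.61, Sprr1a, a cornified envelope protein, at 0.71, and the macrophage receptors Marco at 0.80 and Trem2 at 0.82. Gadd45a differed by 2.64 in the fasted pair and 0.96 in the refed pair, and its lowest signal was in the fasted control liver, as for Cyp26a1. For Rbp4 the 5 nearest genes were Snf8, Ttc7, Zfp692, Sars2 and Cuta, at distances from 0.02 to 0.04, all below the measurement error.

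Beyond the members, 52 other retinoid genes in 6 lists were followed, all of them on the array. The most abundant gene of each of these lists is named after its value was seen. In the fasted pair 44 were measured, 2 were higher and 2 lower in Drp1LiKO liver by at least 2-fold, and their median difference was -0.22, beside -0.08 over all measured genes. In the refed pair 42 were measured, 3 higher and 4 lower by at least 2-fold, with a median of -0.34 beside -0.04 over all genes. Beside these counts stand 8.06% higher and 5.19% lower over all genes in the fasted pair, and 8.05% and 6.33% in the refed pair. Values below 0 were found for 29 of 44 genes in the fasted pair and 29 of 42 in the refed pair. These counts are given without quantile normalization, and no share of all measured genes below 0 stands beside them. The medians over all measured genes, -0.08 and -0.04, were below 0 too, so the counts alone do not set the retinoid genes apart. The fasted medians of most lists moved toward 0 after quantile normalization, as given with each list.

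In the list of retinoid binding, uptake and transport, 5 of 9 genes were measured in each pair, and Rbp2, Rbp7, Stra6 and Crabp1 were at background throughout. Fabp5, a fatty acid-binding protein that also carries retinoic acid, differed by 0.39 ± 0.20 in the fasted pair and 1.37 ± 0.20 in the refed pair. The list's median was -0.06 in the fasted pair, 0.15 after quantile normalization, and 0.20 in the refed pair. Its most abundant gene was Ttr, transthyretin, the partner of the plasma retinol carrier, with -0.63 ± 0.20 and -0.66 ± 0.20, or -0.15 and -0.28 after quantile normalization.

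All 7 genes of retinyl ester and carotenoid turnover were measured. Ces1e, a liver carboxylesterase, had relative signals of 16.0, 6.76, 19.9 and 4.86 in the fasted control, fasted Drp1LiKO, refed control and refed Drp1LiKO livers, lower in Drp1LiKO liver by -1.24 ± 0.20 in the fasted pair and -2.04 ± 0.20 in the refed pair. Its relative Ces1d, a retinyl ester hydrolase, differed by -0.46 ± 0.20 and -1.10 ± 0.20, and the second value was -0.89 after quantile normalization, short of 2-fold. Lpl, lipoprotein lipase, was higher in Drp1LiKO liver by 0.93 ± 0.21 in the fasted pair and 1.45 ± 0.21 in the refed pair, and its other probe gave 1.04 and 1.38. The list's median was -0.26 in the fasted pair and -0.41 in the refed pair, or -0.08 and -0.29 after quantile normalization.

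Of 17 genes that interconvert retinol and retinal, 15 were measured in the fasted pair and 14 in the refed pair, and Sdr16c5 and Adh7 were at background throughout. No gene measured in both livers passed 2-fold between genotypes. Dhrs9, a retinol dehydrogenase, was measured in the fasted Drp1LiKO liver only and was at least 1.05-fold higher there, with 0.33 under normexp background correction. The list's median was -0.23 in the fasted pair and -0.36 in the refed pair, or -0.03 and -0.28 after quantile normalization. Its most abundant gene Adh1, an alcohol dehydrogenase that oxidizes retinol, had -0.53 ± 0.20 in both pairs, or -0.12 and -0.18 after quantile normalization. With refeeding in control liver Rdh1, a retinol dehydrogenase named here after its value was seen, was higher by 1.17 ± 0.22, as the only gene of the list past 2-fold there, and by 0.88 with normexp background correction.

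Among 7 genes of retinal oxidation and retinoic acid breakdown, 6 were measured in the fasted pair and 5 in the refed pair, and Cyp26c1 was at background throughout. Cyp2c39, a cytochrome able to hydroxylate retinoic acid, was lower in Drp1LiKO liver, opposite in sign to both measured CYP26 members. Its relative signals were 18.1, 8.78, 15.8 and 6.22 in the fasted control, fasted Drp1LiKO, refed control and refed Drp1LiKO livers. The genotype difference of Cyp2c39 was -1.04 ± 0.20 in the fasted pair and -1.35 ± 0.20 in the refed pair, and quantile normalization took the first to -0.83, short of 2-fold. The list's median was -0.32 and -0.64, or -0.12 and -0.52 after quantile normalization. Its most abundant gene Aldh1a7, whose activity on retinal was not checked here, had 0.24 ± 0.20 and 0.16 ± 0.20, or 0.52 and 0.32 after quantile normalization.

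The 5 other retinoid receptor genes, Rara, Rarg, Rxra, Rxrb and Rxrg, were all measured and none reached 2-fold between genotypes. Their median was -0.34 in the fasted pair and -0.22 in the refed pair, or -0.21 and -0.19 after quantile normalization. Rxrb, the most abundant, differed by -0.20 ± 0.20, which turned to 0.02 after quantile normalization, and by -0.55 ± 0.20.

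Of 10 genes known to be induced by retinoic acid, 8 were measured in each pair, and Stra6 and Stra8 were at background throughout. The median of the targets was 0.01 in the fasted pair, 0.07 after quantile normalization, -0.06 with dim signals at their bound, -0.10 with normexp background correction, and 0.16 in the refed pair. Rarres2, the chemokine gene that was the most abundant, had -0.32 ± 0.20 and -0.61 ± 0.20, or -0.02 and -0.48 after quantile normalization.

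**Figure D4:**
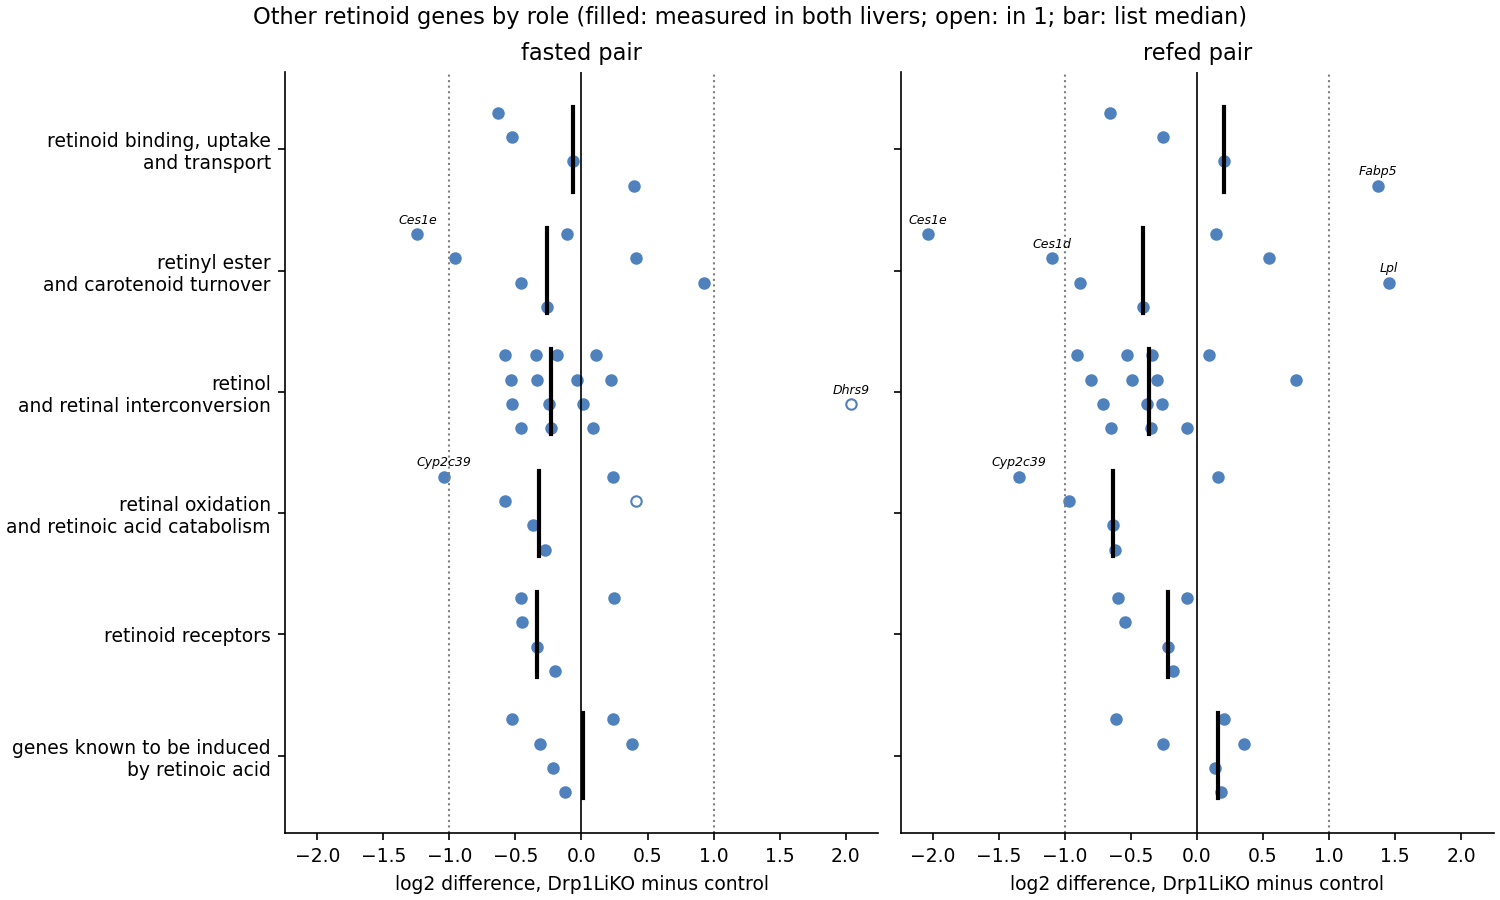
Each point is 1 gene of a retinoid list, placed by its log2 difference of Drp1LiKO minus control liver, in the fasted pair on the left and the refed pair on the right. Filled points were measured in both livers, open points in 1 and are drawn at their uncorrected difference, and black bars give list medians, such as -0.23 and -0.36 for the retinol and retinal enzymes, or -0.03 and -0.28 after quantile normalization.

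Markers of liver cell types were read in the same way, since Lrat belongs to stellate cells and 2 of the genes nearest to Cyp26a1 are macrophage receptors. Of 12 macrophage markers 5 were at least 2-fold higher in Drp1LiKO liver in the fasted pair and 6 in the refed pair, beside 8.06% and 8.05% of all genes, with medians of 0.43 and 0.93 and no marker at least 2-fold lower. Their summed relative signal was 96.7 in the fasted control liver, 115 in the fasted Drp1LiKO liver, 108 in the refed control liver and 191 in the refed Drp1LiKO liver. Trem2, a lipid-sensing receptor of macrophages, was higher by 2.43 ± 0.21 and 1.64 ± 0.21 and Marco, a scavenger receptor, by 1.65 ± 0.20 and 1.61 ± 0.20. Gpnmb, a gene of lipid-laden macrophages, was higher by 2.43 ± 0.28 in the fasted pair and at least 3.65-fold in the refed pair, where the control signal was not well above background, and normexp background correction gave 1.41 and 1.03. Lysozyme Lyz2 was higher by 1.38 ± 0.21 and 1.53 ± 0.21 and the integrin Itgax by 1.16 ± 0.25 and 1.19 ± 0.24, short of 2-fold with normexp background correction at 0.62 and 0.74. Vsig4, a complement receptor, was at 0.16 ± 0.20 and 1.04 ± 0.20. The Kupffer cell marker Clec4f was at -0.16 ± 0.20, or 0.07 after quantile normalization, and at 0.34 ± 0.20, and Cd5l, the most abundant of the list, at 0.25 ± 0.20 and 0.82 ± 0.20.

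No stellate marker of 12 reached 2-fold between genotypes, with medians of 0.29 in the fasted pair and -0.28 in the refed pair. Their summed relative signal was 99.1, 118, 119 and 107.02 in the fasted control, fasted Drp1LiKO, refed control and refed Drp1LiKO livers. The defining marker Reln, an extracellular glycoprotein, differed by -0.74 ± 0.30 and -0.33 ± 0.31, opposite in sign to Lrat, and Dcn, the most abundant, by 0.50 ± 0.20 and 0.20 ± 0.20. Of 9 markers of activated stellate cells or fibroblasts 5 were at least 2-fold higher in the fasted pair, and 1 was higher and 1 lower in the refed pair, with medians of 1.28 and 0.06. With dim signals at their bound these counts were 4 higher in the fasted pair, and 0 higher and 1 lower in the refed pair. With dim signals at their bound the first median was 0.81, and with normexp background correction the medians were 0.40 and -0.07. Their summed relative signal was 4.46, 8.06, 5.97 and 5.79 in the same order. The collagen genes Col1a1, Col1a2 and Col3a1 were higher in the fasted Drp1LiKO liver by 1.67 ± 0.23, 1.29 ± 0.21 and 1.28 ± 0.21, and at -0.02 ± 0.22, 0.06 ± 0.21 and -0.44 ± 0.21 in the refed pair, the first turning to 0.03 with median scaling. The growth factor receptor Pdgfra was at 1.62 ± 0.29 and 0.40 ± 0.30, and normexp background correction took the first to 0.76 and the second to near 0. Timp1, an inhibitor of matrix proteases, was at 0.56 ± 0.23 and -1.48 ± 0.22. Lox, a collagen cross-linking enzyme, was measured in the Drp1LiKO livers only, at least 1.19-fold higher in the fasted pair and with no bound above 1 in the refed pair. Tagln, a smooth muscle protein and the most abundant of the list, was at 0.29 ± 0.20 and 0.16 ± 0.20.

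The hepatocyte list of 8 genes had medians of -0.28 in the fasted pair, 0.18 after quantile normalization, and -0.39 in the refed pair, -0.05 after quantile normalization. Its summed relative signal was 1677, 1241, 2049 and 1449 in the fasted control, fasted Drp1LiKO, refed control and refed Drp1LiKO livers. Alb, the most abundant, differed by -0.52 ± 0.20 and -0.55 ± 0.20, and quantile normalization turned the first to 0.14 and took the second to -0.01. Tat, which breaks down tyrosine, was higher by 1.04 ± 0.20, or 0.98 with median scaling, and 0.98 ± 0.20, and Cps1, of the urea cycle, by 0.60 ± 0.20 and 1.24 ± 0.20. The 6 sinusoidal endothelial markers had medians of 0.17 and -0.28 with none at least 2-fold different, and their summed relative signal was 55.9, 47.6, 59.3 and 40.3. Clec4g, their most abundant, differed by -0.13 ± 0.20, which turned to 0.15 after quantile normalization, and by -0.46 ± 0.20.

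The markers of other cells had low signals. The cholangiocyte list summed to 0.575, 1.11, 0.592 and 1.04 in the fasted control, fasted Drp1LiKO, refed control and refed Drp1LiKO livers, and Epcam was at background throughout. Of its 6 genes the ductal factor Sox9 was higher by 1.24 ± 0.32 in the fasted pair and at least 3.18-fold in the refed pair, and by 0.45 and 0.69 with normexp background correction. Spp1, osteopontin and the most abundant of the list, was higher by 1.40 ± 0.22 and 0.77 ± 0.23. The chloride channel gene Cftr was measured in the fasted control liver only, and the Drp1LiKO liver was at least 2.21-fold lower, with -0.80 under normexp background correction. Krt19, the defining marker, was at 0.22 ± 0.31, or -0.14 with normexp background correction, and 0.68 ± 0.28, and the list's medians were 0.30, -0.14 with normexp background correction, in the fasted pair and 0.73, 0.28 with normexp background correction, in the refed pair.

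The mesothelial list summed to 0.545, 0.979, 0.858 and 0.998 in the same order, with a median of 1.098 in the fasted pair, 0.42 with dim signals at their bound and 0.08 with normexp background correction, and 0.10 in the refed pair, and Lrrn4 was at background throughout. Its defining and most abundant gene Msln was at 0.72 ± 0.21 and 0.10 ± 0.21. The transcription factor Wt1 was measured in the Drp1LiKO livers only, at least 1.82-fold higher in the fasted pair and at least 1.75-fold in the refed pair, with 0.34 and 0.26 under normexp background correction. Gpm6a, a membrane glycoprotein, was measured in the fasted Drp1LiKO liver only, with no bound above 1, and its sign turned with normexp background correction. The adipocyte list summed to 4.14, 12.1, 8.19 and 6.90, nearly all of it the lipid droplet gene Cidec, which also marks fatty liver and differed by 1.59 ± 0.20 and -0.24 ± 0.20. The defining adipocyte marker Adipoq, and Plin1, Retn, Lep and Slc7a10, were at background throughout. What part these cell types have in the differences of the retinoid genes was not tested.

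**Figure D5:**
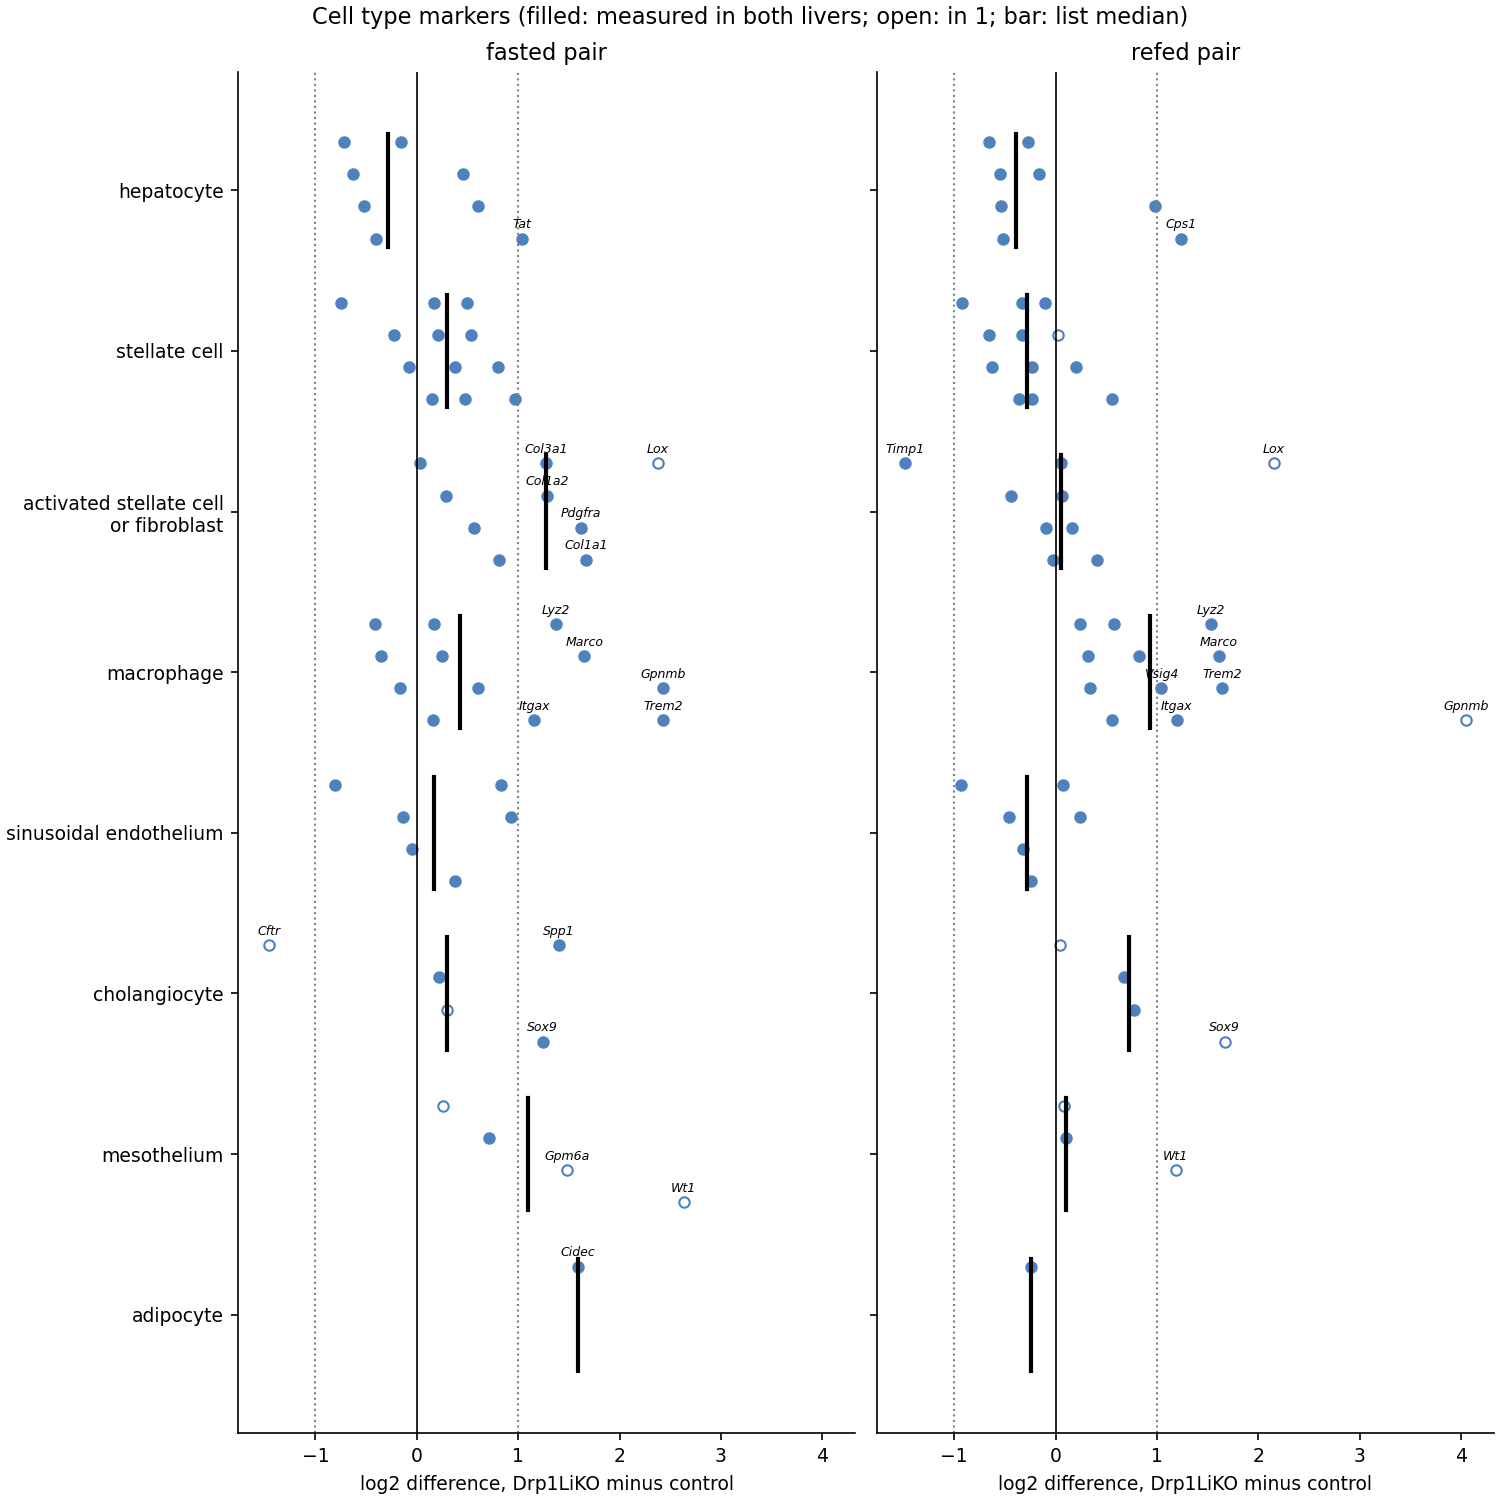
Each point is 1 marker gene of a liver cell type, placed by its log2 difference of Drp1LiKO minus control liver, in the fasted pair on the left and the refed pair on the right. Filled points were measured in both livers, open points in 1 and are drawn at their uncorrected difference, and black bars give list medians, 0.43 and 0.93 for macrophages against 0.29 and -0.28 for stellate cells; the hepatocyte median of -0.28 in the fasted pair turned to 0.18 after quantile normalization.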

How the data were processed

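Liver RNA from 4 mice was labelled with Cy3 and read on Agilent whole-genome 60-mer arrays, 1 array for each group. Per the file headers, the deposited intensities were extracted with Agilent Feature Extraction 10.7.1.1, which subtracts background with spatial detrending within each array; the labels name version 9.5.1.1. The authors also deposited a table of normalized intensities, whose columns have nearly the same median. Its medians were 39.6, 39.5, 39.6 and 39.7 intensity units, and its log2 values followed those of quantile normalization (r from 0.99997 to 0.99998 across 39392 probes, which are not independent replicates). Its columns are centred at about that level, its scale is linear, and the method is not given in the sources used here. The study's methods name another array format, another RNA kit and a slightly shorter fast than the series description.

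Processed signals were taken as log2 minus the log2 of each array's 75th percentile over 43020 gene spots. Control spots and spots flagged as outliers were left out (37 probes), and spots of a probe were averaged. No gene spot was saturated. Each gene's probe was the one measured on most arrays, then the brightest. Accessions were named through RefSeq tables, with 26755 of 28389 RefSeq probes matched, and other probes kept the name of the array's design. Genotype and feeding effects were fitted with limma 3.58.1 in R 4.3.3 (lmFit, eBayes) over genes measured in 2 or more livers, with Benjamini-Hochberg adjustment over all of them. Tables were made with Python 3.11.15, pandas 2.3.3 and numpy 2.4.6. P-values measure the spread left by the additive model among 4 arrays. The slide and the scan were shared by all arrays, so no batch term could be fitted, and the number of arrays limits the precision.

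Alternatives were quantile normalization, median scaling, the authors' table, normexp on raw spot and local background signals (offset 50), the median over probes, a 1.5-fold threshold, both signals well above background, and for limma other filters, an intensity trend and single-factor models. The members and the lists were chosen with earlier results of these data known. From each list the text names every gene at least 2-fold different in a genotype comparison, at most 6 of a list by the summed size of both differences, and from each marker list its most abundant gene and the genes at background throughout. Dnm1l and the 5 genes nearest to Cyp26a1 and to Rbp4 are named too. The most abundant genes of the retinoid lists, the 5 receptors, the genes that share the promoter repeat, the retinoid genes at background throughout, Rdh1, and the markers Clec4f, Reln and Krt19 were named after their values were seen. Values of 2 genes of the retinoid lists are not reported here, in the text or the plot, while the counts and medians of those lists include them.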

Additional observations from a re-analysis of the deposited data

Results flagged for a closer look

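In 2 genes of the activated stellate cell list the genotype difference had opposite signs in the fasted and the refed pair, each beyond 2 measurement SE. Timp1 was at 0.56 ± 0.23 in the fasted pair and -1.48 ± 0.22 in the refed pair, and normexp background correction took the first to 0.22, within 1 SE. Col3a1 was at 1.28 ± 0.21 in the fasted pair and -0.44 ± 0.21 in the refed pair, and the second was within 2 SE with median scaling and with normexp background correction, at -0.40 in each. With 1 array in each group the difference between the pairs was not tested for either gene. None of the 8 measured retinoid members had such opposite signs.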

How the results depend on the processing

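The differences of members and named genes were recomputed with median scaling, quantile normalization, normexp background correction, the authors' table and the median over probes. Cyp26a1 stayed at least 2-fold higher in Drp1LiKO liver in both pairs in all 5, from 1.63 to 2.78 in the fasted pair and from 1.14 to 1.60 in the refed pair. For Cyp26a1 the median over probes only repeats the main value, since the gene has no other probe. The authors' table followed quantile normalization closely, so these 2 settings are nearly the same check. Of 625 recomputed values of named genes 521 moved by less than the measurement SE and 103 by more. The remaining one, Gpm6a in the fasted pair, went from 1.48 to -0.18 with normexp background correction; the cause was not tested. The count of members at least 2-fold different in the refed pair went from 2 to 1 with normexp background correction and to 6 at a 1.5-fold threshold, which also took the count in Drp1LiKO liver after refeeding from 0 to 3, as a lower threshold must admit more. The limma genotype count went from 0 to 1 with an intensity trend, to 2 with normexp background correction and to 2 with genes measured in all livers; the cause was not tested. Setting dim signals to their bound, chosen after seeing the data, gave 3 and 7 of the other retinoid genes at least 2-fold different, beside 4 and 7. No paired analysis was possible because the livers come from different animals with 1 array in each group, and for the same reason no array could be left out. Dim signals limit the values of Rarb, Cyp26a1 in the fasted control liver, and the markers of rare cells.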
